A study of Mus musculus with 39 samples.

Results

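The ileum of C57BL/6J mice was compared with a sample labelled duodenum/jejunum from the same animals. The comparison used 14 of the 39 bulk RNA-seq libraries of a series on mouse gut, 1 ileum and 1 duodenum/jejunum library from each of 7 mice, paired by mouse number. C57BL/6J is an inbred laboratory strain, and the labels give these mice no allele, treatment, sex, age or batch. The other libraries of the series come from the colon of these mice and from the same 3 tissues of 6 BALB/cJ mice, a second inbred strain. All 15351 genes that reached 1 TPM in 6 or more of the 14 libraries entered the test, out of 34574 named entries. TPM gives a transcript's share of all transcripts in a library and is scaled by transcript length, so levels of different genes can be set side by side. The labels do not say where along the gut the pieces were cut. In such tissue, more cells of a type and more RNA per cell cannot be told apart.

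The duodenum and jejunum take up most sugar, fat, iron, calcium and folate, and the duodenum receives pancreatic juice and the mucus of Brunner's glands. The ileum reclaims bile acids through the apical carrier Slc10a2, the cytosolic binder Fabp6 and the basolateral exporter Slc51a and Slc51b. There bile acids act on the nuclear receptor FXR, encoded by Nr1h4, and the hormone Fgf15 carries the signal to the liver. The ileum also holds many Paneth cells, which secrete alpha-defensins, and Peyer's patches, the lymphoid follicles of the gut wall. Along the epithelium, GATA4 maintains the proximal programme, while CDX and Hox factors mark more distal gut.

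Both libraries of mouse 2 went against their labels, in different ways. Fabp6 stood at 8189, 22.1, 4926, 4658, 3766, 4565 and 5052 TPM in the ileum libraries of mice 1 to 7. In the duodenum/jejunum libraries of mice 1 to 7 it stood at 8.07, 6111, 10.8, 4.08, 3.12, 4.14 and 32 TPM. Mouse 2 was thus the reverse of the other mice, with the low value in its library labelled ileum. Tmprss15, which encodes the duodenal protease enteropeptidase, stood at 51.2 TPM in the library of mouse 2 labelled ileum and at 39.2 TPM in that labelled duodenum/jejunum, while the other ileum libraries did not pass 0.0304 TPM. Tff2, a trefoil peptide of Brunner's glands and stomach, stood at 1.33 TPM in the first of these libraries and at 2007 TPM in the second. The library labelled duodenum/jejunum thus held both ileal Fabp6 and the duodenal Tff2 and Tmprss15. The library labelled ileum held Tmprss15 and 6947 TPM of Fabp1 with almost no Fabp6 and almost no Tff2. The libraries were not relabelled. Values and tests are given without mouse 2 (n = 6 pairs), and with all mice (n = 7 pairs) wherever a gene or list member was called there. A gene or list with no result named for 7 mice had no call in that fit. Mouse 2 was left out because of its values, and the p-values without it describe the other 6 mice only.

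**Figure D1:**
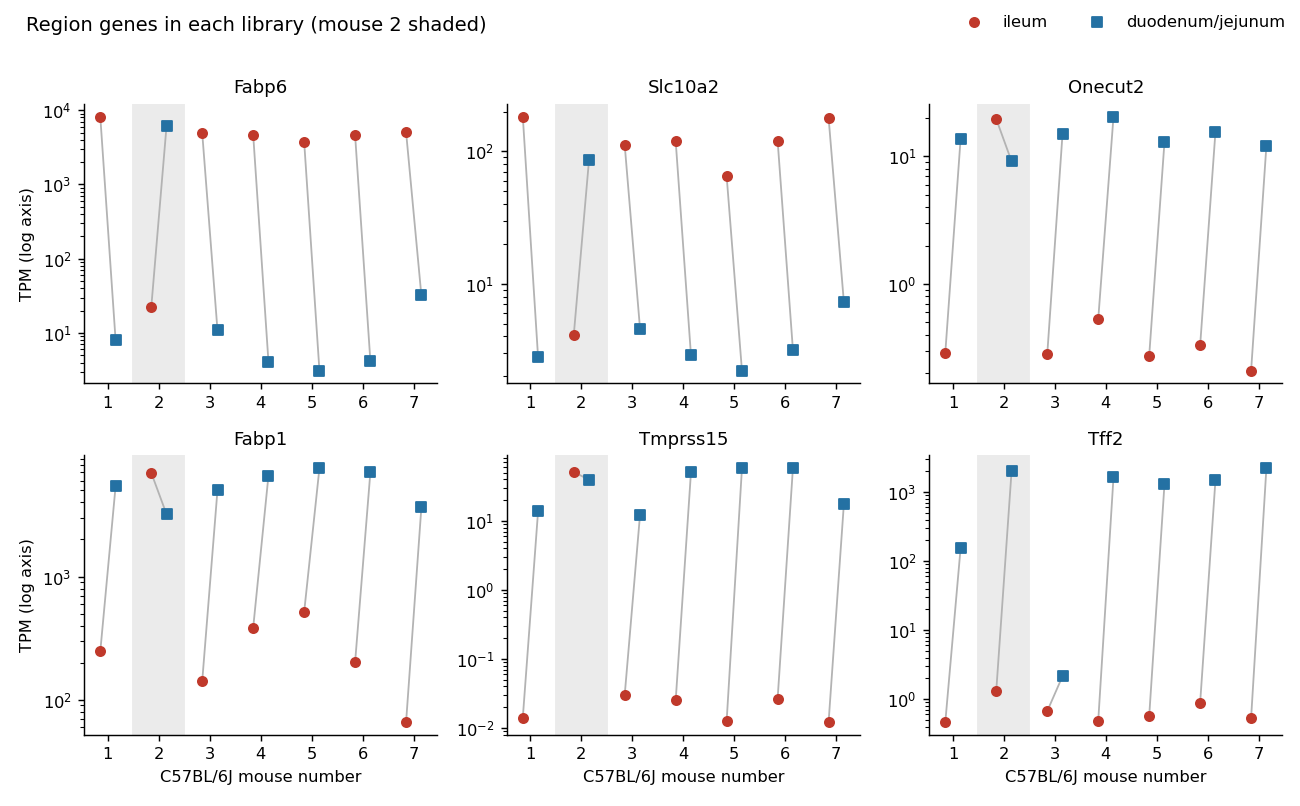
Level in TPM (log axis) of Fabp6, Slc10a2 and Onecut2 (top) and of Fabp1, Tmprss15 and Tff2 (bottom) in the ileum (circles, left of each pair) and duodenum/jejunum (squares) of each C57BL/6J mouse. In 6 mice Fabp6 lies between 3766 and 8189 TPM in ileum and at or under 32 TPM in duodenum/jejunum, and in mouse 2 (shaded) the order is reversed; Tff2 is low in the duodenum/jejunum of mouse 3.

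Many genes were called between the tissues in 6 mice and few in all 7. Without mouse 2, limma called 3733 of 15351 genes (24.3%) at an adjusted p under 0.05, 2007 of them higher (13.1%) and 1726 lower (11.2%) in ileum. Of these, 200 were higher and 328 lower by at least 1 on the log2 scale. Counts of list members called in 6 mice are to be read against the 13.1% and 11.2% of all genes. With all 7 mice, 56 genes were called (0.365%), 20 higher and 36 lower in ileum, and all 56 were also called in the same direction without mouse 2. Without the pairing by mouse, 676 genes were called with 7 mice and 2923 with 6. Leaving out 1 mouse of the 7 moved the count to 3733 without mouse 2, 10 without mouse 3 and 0 without any of mice 1, 4, 5, 6 and 7. An unadjusted p under 0.05 was reached by 3187 genes with 7 mice and by 5593 genes with 6. The median change of all genes was 0.05 with 7 mice and 0.06 with 6. With another scaling of the libraries (median of ratios, RLE) the split was 5 higher and 18 lower with 7 mice, and 1742 higher and 2102 lower with 6. With alpha-defensin and mitochondrially encoded genes taken out of the total, it was 2528 higher and 1414 lower with 6 mice. Ileum and duodenum/jejunum did not overlap for 1701 genes with 6 mice (11.1%), 811 higher (5.28%) and 890 lower (5.8%) in ileum, and for 120 with 7 mice (0.782%), 64 higher (0.417%) and 56 lower (0.365%). Most genes named below were picked by change or p-value in these same fits. Their lack of overlap is therefore given as description and adds no support.

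Mouse 2 ran opposite to the other mice across most called genes, except for some of the most proximal ones. Across genes, its change had a Pearson r of -0.34 with the mean change of the other mice, while each other mouse had an r of 0.66 to 0.76 with the rest; genes are not independent replicates. Of the genes called without it, mouse 2 had the same sign for 26.5% of those higher and for 14.8% of those lower in ileum. Among changes of at least 2 on the log2 scale it shared the sign of 1 of 34 genes higher in ileum, but of 27 of 96 genes lower in ileum.

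**Figure D2:**
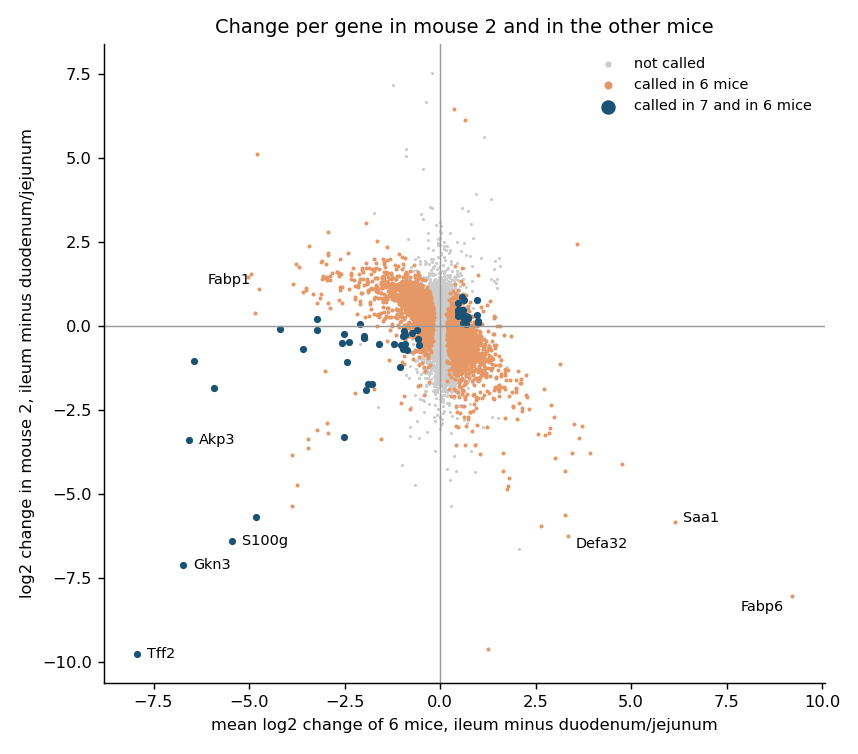
Each point is 1 of 15351 genes, with the mean log2 change (ileum minus duodenum/jejunum) of 6 mice on the horizontal axis and the change in mouse 2 on the vertical axis; colours mark genes called without mouse 2 and genes called also with all mice. Fabp6, Saa1 and Defa32 lie at the lower right, higher in ileum in 6 mice and lower in mouse 2, while Tff2, Gkn3, S100g and Akp3 lie at the lower left, lower in the ileum libraries of all 7.

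Genes of the first part of the small intestine held the largest decreases in ileum, and many of them were lower in mouse 2 as well. From here on, the lowest, median and highest TPM over 6 mice are given in that order for each tissue, mouse 2 is given apart, changes are log2 changes of TPM + 1 in ileum minus duodenum/jejunum, and each ± after a change is a standard error (SE). Tff2 had 0.464, 0.548 and 0.881 TPM in ileum, against 2.15, 1387 and 2230 TPM in duodenum/jejunum (log2 change -7.93 ± 1.14 SE, adjusted p 0.0012). With 7 mice its change was -8.19 ± 1.07 SE (adjusted p 0.036). Gkn3, a gastrokine gene, had 0.165, 0.566 and 1.16 TPM in ileum, against 7.62, 402 and 651 TPM in duodenum/jejunum (log2 change -6.72 ± 0.80 SE, adjusted p 0.00041), and Muc6, the gel-forming mucin of Brunner's glands, 0.393, 0.439 and 0.895 TPM in ileum, against 0.958, 60.8 and 178 TPM in duodenum/jejunum (log2 change -4.83 ± 0.78 SE, adjusted p 0.0022). Both were called with 7 mice as well (adjusted p 0.036 and 0.044). In duodenum/jejunum all 3 genes were lowest in mouse 3 (2.15, 7.62 and 0.958 TPM) and next lowest in mouse 1 (154, 51.6 and 29.8 TPM). Tff2 lies on chromosome 17 from 31141049 to 31144282 and Gkn3 on chromosome 6 from 87383256 to 87388935 of GRCm38. Cym, the milk-clotting protease chymosin, had 0, 0.0925 and 0.206 TPM in ileum, against 3.79, 7.54 and 9.56 TPM in duodenum/jejunum (log2 change -2.89 ± 0.15 SE, adjusted p 3.4e-06), and was at 9.29 TPM in the library of mouse 2 labelled ileum. Of 6 Brunner gland and gastric genes tested, 5 were lower in ileum without mouse 2 and 4 with all mice, with 0 higher in either (1 higher with alpha-defensin and mitochondrially encoded genes taken out of the total). Tff2 and Muc6 stayed under 1 TPM in each ileum of the 6 mice and passed the filter through duodenum/jejunum. A gene that passes so can hardly be called higher in ileum, so the direction of this count adds no support. The 16 listed genes summed to 483, 986 and 1204 TPM in ileum, against 533, 2933 and 4233 TPM in duodenum/jejunum, without a test. In mouse 1 the sum was higher in ileum (955 against 843 TPM). Pdx1, a homeobox gene of duodenum and pancreas chosen after its values were seen, had 0.0255, 0.0621 and 0.132 TPM in ileum, against 1.06, 5.26 and 13.3 TPM in duodenum/jejunum (log2 change -2.44 ± 0.32 SE, adjusted p 0.00068; with 7 mice adjusted p 0.045).

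Other proximal genes kept this direction in all 7 mice. S100g, the calcium-binding calbindin of absorptive cells, had 2.43, 7.25 and 10.6 TPM in ileum, against 21.8, 625 and 1429 TPM in duodenum/jejunum (log2 change -5.44 ± 0.81 SE, adjusted p 0.0015; adjusted p 0.036 with 7 mice). The ileum values did not reach the duodenum/jejunum values, which spread widely and were lowest in mouse 3. Akp3, the duodenal alkaline phosphatase, had 1.3, 2.43 and 2.62 TPM in ileum, against 35.7, 455 and 1249 TPM in duodenum/jejunum (log2 change -6.57 ± 0.54 SE, adjusted p 4.8e-05), and Reg1, a secreted lectin, 8.78, 9.86 and 11.1 TPM in ileum, against 368, 1112 and 2099 TPM in duodenum/jejunum (log2 change -6.44 ± 0.32 SE, adjusted p 3.1e-06). In mouse 2, Akp3 stood at 97.8 TPM in the library labelled ileum and 1041 TPM in that labelled duodenum/jejunum, and Reg1 at 504 and 1044 TPM. Sult6b2, a sulfotransferase, had 0.066, 0.132 and 0.319 TPM in ileum, against 32.3, 70.5 and 154 TPM in duodenum/jejunum (log2 change -5.91 ± 0.32 SE, adjusted p 4.6e-06), and Otop3, a proton channel, 0.0217, 0.0712 and 0.124 TPM in ileum, against 7.02, 10.4 and 22.8 TPM in duodenum/jejunum (log2 change -3.58 ± 0.25 SE, adjusted p 1.8e-05). Car2, a cytosolic carbonic anhydrase, fell less, with 4, 5.81 and 9.15 TPM in ileum, against 18.5, 45.8 and 71 TPM in duodenum/jejunum (log2 change -2.56 ± 0.25 SE, adjusted p 0.00014). These 5 genes were called with 7 mice too, with adjusted p of 0.036 to 0.044.

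Pancreatic enzyme genes were also lower in ileum, with very unequal levels between mice. Of 8 tested members, 8 were lower in ileum without mouse 2, and with 7 mice limma called 0, with 8 at an unadjusted p under 0.05. Only these 8 of the 21 listed genes passed the filter on level. A gene that passes through its duodenum/jejunum libraries alone can hardly be called higher in ileum, so the shared direction adds no support. Without mouse 2 the count of 8 was 1 with no filter or robust variance moderation, 1 without mouse 4, 5 or 6 and 4 without mouse 7. Their summed level, over 21 listed genes, was 13.6, 17.6 and 22.3 TPM in ileum, against 22.7, 1451 and 8908 TPM in duodenum/jejunum, without a test. Mice 1 and 3, with the lowest sums in duodenum/jejunum (22.7 and 30.1 TPM), also had the lowest Tff2, while mouse 6 had the highest sum. Rnase1, a secreted ribonuclease, had 1.97, 3.43 and 4.87 TPM in ileum, against 8.52, 41.3 and 200 TPM in duodenum/jejunum (log2 change -3.01 ± 0.52 SE, adjusted p 0.0034), and Cela1, an elastase gene that is also expressed in this colon (median 165 TPM over 7 mice), 4, 4.09 and 5.04 TPM in ileum, against 5.09, 111 and 634 TPM in duodenum/jejunum (log2 change -3.46 ± 0.88 SE, adjusted p 0.021). The call of Cela1 was lost when mouse 4, 5 or 6 was left out as well (adjusted p 0.062, 0.058 and 0.052). Whether pancreatic tissue or the site of the cut bears on the other proximal genes was not tested.

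The genes called higher in ileum with all 7 mice were of moderate size, none reaching 1 on the log2 scale. Saa3, a serum amyloid A gene, had 9.14, 11.2 and 13.1 TPM in ileum, against 3.65, 5.35 and 6.59 TPM in duodenum/jejunum, and 10.4 and 8.14 TPM in the ileum and duodenum/jejunum libraries of mouse 2. Its change with 7 mice was 0.87 ± 0.12 SE (adjusted p 0.036) and without mouse 2 0.96 ± 0.10 SE (adjusted p 0.00015). Batf2, an interferon-induced transcription factor, had 37.2, 45.8 and 56.9 TPM in ileum, against 15.8, 25.2 and 27 TPM in duodenum/jejunum, and Evpl, the junction protein envoplakin, 11.3, 13.8 and 15.7 TPM in ileum, against 4.52, 7.13 and 7.76 TPM in duodenum/jejunum. Relb, a subunit of NF-kappaB, had 41.3, 46.2 and 61.9 TPM in ileum, against 24.6, 29.3 and 34.3 TPM in duodenum/jejunum. The 4 genes did not overlap between the tissues in 6 mice. Their changes without mouse 2 were 0.96, 0.99, 0.99 and 0.68, and with 7 mice 0.87, 0.87, 0.87 and 0.63 (adjusted p 0.036 to 0.05 with 7 mice). Smox, a polyamine oxidase, Ceacam20, a brush border adhesion molecule, Naip1, an inflammasome receptor, and Creld1 changed by 0.68, 0.62, 0.59 and 0.58 with 7 mice (adjusted p 0.036 to 0.05). Levels of Ceacam20 and Creld1 overlapped between the tissues in 6 mice.

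Genes of bile acid recovery were among the largest increases in ileum in 6 mice. Fabp6 had 3766, 4792 and 8189 TPM in ileum, against 3.12, 6.1 and 32 TPM in duodenum/jejunum, a ratio of means of 501 (log2 change 9.21 ± 0.33 SE, adjusted p 7.1e-07). Slc10a2 had 64.6, 120 and 183 TPM in ileum, against 2.21, 3.02 and 7.25 TPM in duodenum/jejunum (log2 change 4.76 ± 0.16 SE, adjusted p 7.1e-07). Neither gene overlapped between the tissues. Slc51a and Slc51b were more even along the gut: Slc51a had 277, 318 and 455 TPM in ileum, against 92.2, 128 and 136 TPM in duodenum/jejunum (log2 change 1.44 ± 0.10 SE, adjusted p 1.7e-05), and Slc51b 254, 359 and 534 TPM in ileum, against 94.7, 121 and 160 TPM in duodenum/jejunum (log2 change 1.55 ± 0.13 SE, adjusted p 4.4e-05). Thus the exporter was also present in duodenum/jejunum, where the carrier and the binder were low. Fgf15 had 7.97, 20.4 and 36.6 TPM in ileum, against 0.215, 0.524 and 1.49 TPM in duodenum/jejunum (log2 change 3.71 ± 0.17 SE, adjusted p 2e-06), and Nr1h4 65, 79.9 and 92 TPM in ileum, against 22, 26.3 and 29.3 TPM in duodenum/jejunum (log2 change 1.60 ± 0.08 SE, adjusted p 3e-06). Abcc2, an export pump of the apical membrane, went the other way with 33, 71.8 and 132 TPM in ileum, against 176, 231 and 346 TPM in duodenum/jejunum (log2 change -1.80 ± 0.14 SE, adjusted p 4e-05). Nr0b2, a repressor gene that FXR is known to switch on, was the other lower one, with 0.053, 0.198 and 0.557 TPM in ileum, against 1.46, 3.06 and 5.37 TPM in duodenum/jejunum (log2 change -1.66 ± 0.23 SE, adjusted p 0.00089), and was chosen after its values were seen. Of 11 genes of the bile acid list, 7 were higher and 2 lower in ileum without mouse 2, and with 7 mice limma called 0, with 8 at an unadjusted p under 0.05 (adjusted p of the 8 genes named so far 0.063 to 0.13). In mouse 2 Slc10a2 stood at 4.1 TPM in the library labelled ileum and 86.7 TPM in that labelled duodenum/jejunum, and Fgf15 at 0.425 and 10.1 TPM. In the colon of the 7 mice, Slc10a2 had a median of 70.8 TPM and Fabp6 of 11.7 TPM, given without a test.

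The promoter windows of the 2 genes with the largest bile acid changes and of 3 genes of proximal uptake show what lies next to transcripts that moved in opposite directions. They come from RefSeq (GRCm38.p6) and run from 250 bases before to 50 bases after the start of the gene, 5′ to 3′ on the strand of the gene. Capitals mark matches, on either strand, to 5 short motifs. AGATAA is a GATA factor motif, and the other GATA form, TGATAA, shares its last 5 letters. The CDX forms are TTTATGG and, differing in 1 letter, TTTATTG. The last is CCAAT, which can overlap the reverse complement of the second CDX form by 4 letters. The motifs were chosen after the gene values were seen.
Fabp6 (chr11:43601513-43601812, minus strand): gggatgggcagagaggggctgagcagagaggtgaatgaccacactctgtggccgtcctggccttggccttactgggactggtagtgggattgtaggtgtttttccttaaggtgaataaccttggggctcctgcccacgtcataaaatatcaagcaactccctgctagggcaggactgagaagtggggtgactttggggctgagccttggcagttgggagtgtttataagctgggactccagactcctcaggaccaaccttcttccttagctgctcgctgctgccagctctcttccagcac
Slc10a2 (chr8:5105238-5105537, minus strand): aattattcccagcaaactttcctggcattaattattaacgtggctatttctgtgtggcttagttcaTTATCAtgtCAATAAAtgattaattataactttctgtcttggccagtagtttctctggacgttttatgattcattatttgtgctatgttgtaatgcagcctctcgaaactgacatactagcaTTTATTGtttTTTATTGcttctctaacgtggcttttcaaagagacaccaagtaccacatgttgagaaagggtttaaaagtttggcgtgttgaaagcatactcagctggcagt
Fabp1 (chr6:71199629-71199928, plus strand): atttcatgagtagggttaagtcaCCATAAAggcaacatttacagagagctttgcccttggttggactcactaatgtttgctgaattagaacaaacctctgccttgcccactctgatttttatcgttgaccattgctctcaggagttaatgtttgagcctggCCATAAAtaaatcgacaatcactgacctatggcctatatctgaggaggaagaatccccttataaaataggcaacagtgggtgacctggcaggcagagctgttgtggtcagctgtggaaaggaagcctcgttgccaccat
Lct (chr1:128328269-128328568, minus strand): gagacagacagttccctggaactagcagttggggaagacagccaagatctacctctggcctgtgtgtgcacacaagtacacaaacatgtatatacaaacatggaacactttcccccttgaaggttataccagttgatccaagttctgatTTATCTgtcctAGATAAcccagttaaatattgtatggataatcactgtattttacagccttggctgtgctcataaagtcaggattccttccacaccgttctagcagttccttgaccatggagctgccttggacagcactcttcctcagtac
Slc2a2 (chr3:28697653-28697952, plus strand): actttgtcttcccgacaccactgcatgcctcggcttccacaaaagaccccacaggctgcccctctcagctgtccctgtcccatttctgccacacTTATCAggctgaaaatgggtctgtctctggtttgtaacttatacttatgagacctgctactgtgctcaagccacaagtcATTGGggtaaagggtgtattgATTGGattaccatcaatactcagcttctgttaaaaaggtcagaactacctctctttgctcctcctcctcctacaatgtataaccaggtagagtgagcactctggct

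In these windows Slc10a2 held 3 matches to TTTATTG and 1 to TGATAA, Fabp1 held 2 to TTTATGG, Lct held 2 to AGATAA, and Slc2a2 held 1 to TGATAA and 2 to CCAAT. Fabp6 held 0 matches to any of them, which says only that these letters are not in this window. Of all 32851 promoter windows of the table, 11.2% held AGATAA, 9.05% TGATAA, 2.75% TTTATGG, 4.6% TTTATTG and 37.4% CCAAT. These matches are letters in a window and were not tested as sites.

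Transcription factors of gut position were divided between the tissues. Onecut2, a homeobox factor of proximal gut, had 0.21, 0.286 and 0.528 TPM in ileum, against 12.1, 14.4 and 20.5 TPM in duodenum/jejunum (log2 change -3.58 ± 0.09 SE, adjusted p 2.2e-07). Gata4 had 18.9, 35.9 and 46.8 TPM in ileum, against 81.5, 99.6 and 116 TPM in duodenum/jejunum (log2 change -1.54 ± 0.17 SE, adjusted p 0.00031) and Gata6, its relative, a smaller change with 18.7, 21.2 and 22.6 TPM in ileum, against 28.4, 33.2 and 39.7 TPM in duodenum/jejunum (log2 change -0.66 ± 0.07 SE, adjusted p 0.00024). Hnf4g, a nuclear receptor of absorptive cells, fell by 0.78 on the log2 scale (adjusted p 2.8e-05). Creb3l3, a factor that drives genes of triglyceride transport, had 35.3, 88.5 and 113 TPM in ileum, against 189, 221 and 296 TPM in duodenum/jejunum (log2 change -1.52 ± 0.16 SE, adjusted p 0.00024). None of these 5 genes overlapped between the tissues in 6 mice. In mouse 2, the library labelled ileum had 19.6 TPM of Onecut2 and 129 TPM of Gata4, against 9.16 and 64.5 TPM in that labelled duodenum/jejunum. Of the CDX factors, both chosen after their values were seen, Cdx1 had 76, 84.6 and 87.8 TPM in ileum, against 33.6, 50.4 and 63.4 TPM in duodenum/jejunum (log2 change 0.75 ± 0.10 SE, adjusted p 0.0008) and Cdx2 71, 82.4 and 102 TPM in ileum, against 43.3, 67.1 and 70.4 TPM in duodenum/jejunum (log2 change 0.43 ± 0.11 SE, adjusted p 0.018; 0.065 with no filter on low values). Of 29 regional transcription factors, 10 were higher and 7 lower in ileum, and 1 was called with 7 mice, Pdx1.

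Hox genes number their members by position along the body axis, and those called were higher in ileum, with 1 exception. Hoxb6 had 2.24, 4.96 and 9.63 TPM in ileum, against 0.321, 0.635 and 1.27 TPM in duodenum/jejunum (log2 change 1.78 ± 0.14 SE, adjusted p 4.3e-05), and Hoxb9 1.01, 4.59 and 7.12 TPM in ileum, against 0.122, 0.206 and 0.477 TPM in duodenum/jejunum (log2 change 1.98 ± 0.23 SE, adjusted p 0.00033). Hoxc8 had 3.85, 4.13 and 5.55 TPM in ileum, against 0.632, 1.03 and 1.71 TPM in duodenum/jejunum (log2 change 1.42 ± 0.12 SE, adjusted p 4.4e-05), and Hoxc6 3.2, 5.08 and 7.5 TPM in ileum, against 1.17, 1.4 and 2.86 TPM in duodenum/jejunum (log2 change 1.21 ± 0.14 SE, adjusted p 0.00041). None of the 4 overlapped between these tissues. Their levels in the colon, given without a test, were divided. Hoxb9 had 22.3, 27.4 and 33 TPM there (lowest, median and highest of 7 mice), above each ileum of the 6 mice, and Hoxb6 3.75, 12.6 and 18.8 TPM, overlapping the ileum values. Hoxc8 had 0.332, 0.477 and 0.607 TPM and Hoxc6 0, 0.249 and 0.584 TPM, below each ileum of the 6 mice. Of 16 Hox genes tested of 36 in the tables, 6 were higher and 1, Hoxa5, lower without mouse 2 (0 lower with alpha-defensin and mitochondrially encoded genes taken out of the total), and with 7 mice limma called 0, with 10 at an unadjusted p under 0.05. Hoxb9 did not pass 0.477 TPM in duodenum/jejunum of the 6 mice and passed the filter through ileum. A gene that passes so can hardly be called lower in ileum, so the direction of this count adds no support.

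Most genes of fat absorption were lower in ileum. Fabp1, a fatty acid binding protein, had 66, 225 and 515 TPM in ileum, against 3635, 5995 and 7576 TPM in duodenum/jejunum (log2 change -4.74 ± 0.23 SE, adjusted p 2.8e-06), and Apoa4, an apolipoprotein of chylomicrons, 221, 924 and 1154 TPM in ileum, against 4606, 7888 and 8388 TPM in duodenum/jejunum (log2 change -3.44 ± 0.21 SE, adjusted p 9e-06). Apoc2, the activator of lipoprotein lipase, had 94, 289 and 326 TPM in ileum, against 1311, 1907 and 2468 TPM in duodenum/jejunum (log2 change -3.07 ± 0.18 SE, adjusted p 6.6e-06). None of the 3 overlapped between the tissues. Of 30 genes of fat absorption, 20 were lower and 3 higher in ileum, with a median change of -0.57 against 0.06 over all genes. Scd2, a desaturase that makes monounsaturated fatty acids, was among the higher ones with 33.3, 65.8 and 86.2 TPM in ileum, against 8.29, 13.4 and 17.8 TPM in duodenum/jejunum (log2 change 2.14 ± 0.10 SE, adjusted p 2.3e-06). The summed level of Apoa1, Apoa4, Apoc2, Apoc3 and Apob was 7587 ± 2390 TPM in ileum and 21304 ± 3200 TPM in duodenum/jejunum (SD, n = 6), and it was lower in ileum in 6 of 6 mice.

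Genes of sugar digestion and transport were lower in ileum nearly throughout. Slc2a2, the basolateral glucose and fructose carrier GLUT2, had 28.6, 39.7 and 51.7 TPM in ileum, against 273, 320 and 390 TPM in duodenum/jejunum (log2 change -3.02 ± 0.10 SE, adjusted p 7.1e-07). Treh, which splits trehalose, had 38.5, 57.2 and 76.8 TPM in ileum, against 175, 259 and 276 TPM in duodenum/jejunum (log2 change -2.04 ± 0.08 SE, adjusted p 8.4e-07), and Slc2a5, the apical fructose carrier, 24.9, 34.5 and 43.9 TPM in ileum, against 71.1, 120 and 144 TPM in duodenum/jejunum (log2 change -1.71 ± 0.09 SE, adjusted p 3.7e-06). Lct, the lactase gene, had 34.8, 182 and 233 TPM in ileum, against 533, 816 and 1119 TPM in duodenum/jejunum (log2 change -2.62 ± 0.24 SE, adjusted p 9.7e-05). All 4 were lower in ileum without overlap. Of 13 genes of sugar uptake, 12 were lower and 1, Slc2a1, higher in ileum. Of 13 genes of fructose breakdown and gluconeogenesis, 10 were lower and 0 higher. Khk, the kinase that starts fructose breakdown, had 106, 154 and 172 TPM in ileum, against 331, 424 and 464 TPM in duodenum/jejunum (log2 change -1.50 ± 0.07 SE, adjusted p 2.8e-06).

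Genes of vitamin uptake were mostly lower in ileum, and those of mineral uptake in part. Slc46a1, the folate carrier, had 5.98, 7.96 and 11.4 TPM in ileum, against 61.3, 105 and 162 TPM in duodenum/jejunum (log2 change -3.50 ± 0.11 SE, adjusted p 7e-07). Rbp2, which binds retinol inside absorptive cells, had 193, 497 and 684 TPM in ileum, against 2396, 3396 and 4183 TPM in duodenum/jejunum (log2 change -2.95 ± 0.13 SE, adjusted p 1.8e-06), and Adh1, an alcohol and retinol dehydrogenase, 12.4, 22 and 32.6 TPM in ileum, against 223, 312 and 432 TPM in duodenum/jejunum (log2 change -3.85 ± 0.07 SE, adjusted p 2.6e-08). None of these 3 genes overlapped between the tissues. Of 18 genes of vitamin uptake, 13 were lower and 2 higher in ileum, and of 19 genes of iron, calcium and trace metals, 8 were lower and 1 higher, with S100g alone lower with 7 mice. The phosphate carrier Slc34a2 was the higher one, with 321, 460 and 619 TPM in ileum, against 112, 129 and 237 TPM in duodenum/jejunum (log2 change 1.67 ± 0.11 SE, adjusted p 1.2e-05). Slc11a2, the apical iron carrier, fell by 0.31 on the log2 scale (adjusted p 0.0042), a call lost without the pairing (adjusted p 0.099). Slc40a1, the iron exporter ferroportin, was not called, with 19.9, 29.1 and 33.5 TPM in ileum, against 12.1, 56.1 and 130 TPM in duodenum/jejunum (log2 change -0.79 ± 0.47 SE, adjusted p 0.27). Its duodenum/jejunum levels were 37.3, 114, 12.1, 130, 120, 74.9 and 21.1 TPM in mice 1 to 7, lowest in mouse 3 and next in mouse 7.

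Peptidases and amino acid carriers were divided between both ends. Mep1a, the meprin subunit of the brush border, was higher in ileum with 287, 318 and 451 TPM in ileum, against 78.2, 98.8 and 131 TPM in duodenum/jejunum (log2 change 1.68 ± 0.09 SE, adjusted p 4.2e-06), while Mme, the endopeptidase neprilysin, was lower with 78.2, 131 and 155 TPM in ileum, against 329, 460 and 494 TPM in duodenum/jejunum (log2 change -1.89 ± 0.12 SE, adjusted p 1.2e-05). Tmprss15 was at or under 0.0304 TPM in each ileum of 6 mice, against 12.2, 34.2 and 57.9 TPM in duodenum/jejunum (log2 change -4.85 ± 0.33 SE, adjusted p 1.6e-05). Of 17 brush border peptidases, 4 were higher and 5 lower in ileum. Of 20 carriers of amino acids and peptides, 5 were higher, among them Slc1a1 and Slc6a14, and 6 lower. The shares over all genes were 13.1% higher and 11.2% lower. Slc7a8, a basolateral carrier of neutral amino acids, had 16.8, 29.4 and 34.3 TPM in ileum, against 44.2, 82.7 and 120 TPM in duodenum/jejunum (log2 change -1.54 ± 0.16 SE, adjusted p 0.00016). Slc6a20a, an apical carrier of proline, had overlapping levels of 55.6, 79.2 and 131 TPM in ileum, against 99.8, 142 and 210 TPM in duodenum/jejunum and was lower in ileum within each of 6 mice (log2 change -0.81 ± 0.07 SE, adjusted p 4.2e-05). Otc, the urea cycle enzyme that makes citrulline in gut, fell by little, with 80.5, 87.8 and 99.7 TPM in ileum, against 102, 113 and 122 TPM in duodenum/jejunum (log2 change -0.34 ± 0.06 SE, adjusted p 0.0024), and 6 of 11 genes of citrulline and arginine synthesis were lower and 2 higher (4 higher with alpha-defensin and mitochondrially encoded genes taken out of the total).

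Enzymes that act on drugs and other foreign compounds fell in ileum across 3 families. Cyp2c29, a cytochrome P450, had 0.0958, 0.487 and 1.43 TPM in ileum, against 27.8, 52.2 and 90.8 TPM in duodenum/jejunum (log2 change -5.04 ± 0.18 SE, adjusted p 7.1e-07), Cyp2c66 had 0.517, 5.25 and 11.7 TPM in ileum, against 68.3, 165 and 229 TPM in duodenum/jejunum (log2 change -4.94 ± 0.31 SE, adjusted p 9.6e-06), and Cyp2c65 had 25, 47.4 and 65.4 TPM in ileum, against 137, 248 and 297 TPM in duodenum/jejunum (log2 change -2.38 ± 0.09 SE, adjusted p 8.1e-07). The 3 are close paralogs, and reads shared between them may be split by the quantification. Nr1i3, the xenobiotic receptor CAR, had 4.62, 7.43 and 9.61 TPM in ileum, against 27.4, 34.7 and 42.2 TPM in duodenum/jejunum (log2 change -2.15 ± 0.11 SE, adjusted p 3.4e-06). Of 25 genes of the P450 list, 19 were lower and 0 higher in ileum. Of 11 carboxylesterases, 7 were lower and 1, Ces1c, higher: Ces2g had 1.47, 2.12 and 3.12 TPM in ileum, against 16.6, 27.9 and 38 TPM in duodenum/jejunum (log2 change -3.14 ± 0.11 SE, adjusted p 7.1e-07), and the far more abundant Ces2e 330, 389 and 452 TPM in ileum, against 503, 721 and 823 TPM in duodenum/jejunum (log2 change -0.83 ± 0.09 SE, adjusted p 0.00026). Of 37 conjugation enzymes, 30 were lower and 0 higher without mouse 2, and 5 were lower with all 7 mice. Gstm3, a glutathione S-transferase, had 7.3, 20.8 and 41.3 TPM in ileum, against 91.7, 222 and 340 TPM in duodenum/jejunum (log2 change -3.32 ± 0.12 SE, adjusted p 7.2e-07), and Ugt1a1, which joins glucuronic acid to bilirubin and drugs, 49, 64.6 and 85.8 TPM in ileum, against 148, 217 and 276 TPM in duodenum/jejunum (log2 change -1.62 ± 0.07 SE, adjusted p 9.3e-07). Levels of these named genes did not overlap between the tissues in 6 mice.

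Genes of fuel oxidation were also lower in ileum. Of 26 genes of ketogenesis and fatty acid oxidation, 21 were lower and 0 higher in ileum. Acaa1b, a peroxisomal thiolase, had 0.771, 1.64 and 2.37 TPM in ileum, against 9.44, 24.1 and 28.6 TPM in duodenum/jejunum (log2 change -3.12 ± 0.16 SE, adjusted p 3.9e-06), and Pdk4, the kinase that turns glucose oxidation down, 1.47, 2.6 and 5.9 TPM in ileum, against 19.5, 30.4 and 36.9 TPM in duodenum/jejunum (log2 change -2.83 ± 0.16 SE, adjusted p 6.8e-06). Of 12 mitochondrially encoded genes, 11 were lower, and their sum was 26001 ± 2375 TPM in ileum and 42505 ± 6273 TPM in duodenum/jejunum (SD, n = 6), lower in 6 of 6 mice and reversed in mouse 2 (78385 TPM in the library labelled ileum and 39590 TPM in that labelled duodenum/jejunum). Tymp, which breaks down thymidine, had 4.66, 8.61 and 11.8 TPM in ileum, against 29.9, 44.1 and 54 TPM in duodenum/jejunum (log2 change -2.28 ± 0.09 SE, adjusted p 8.8e-07), and 10 of 16 genes of purine and nucleoside breakdown were lower and 2 higher.

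**Figure D3:**
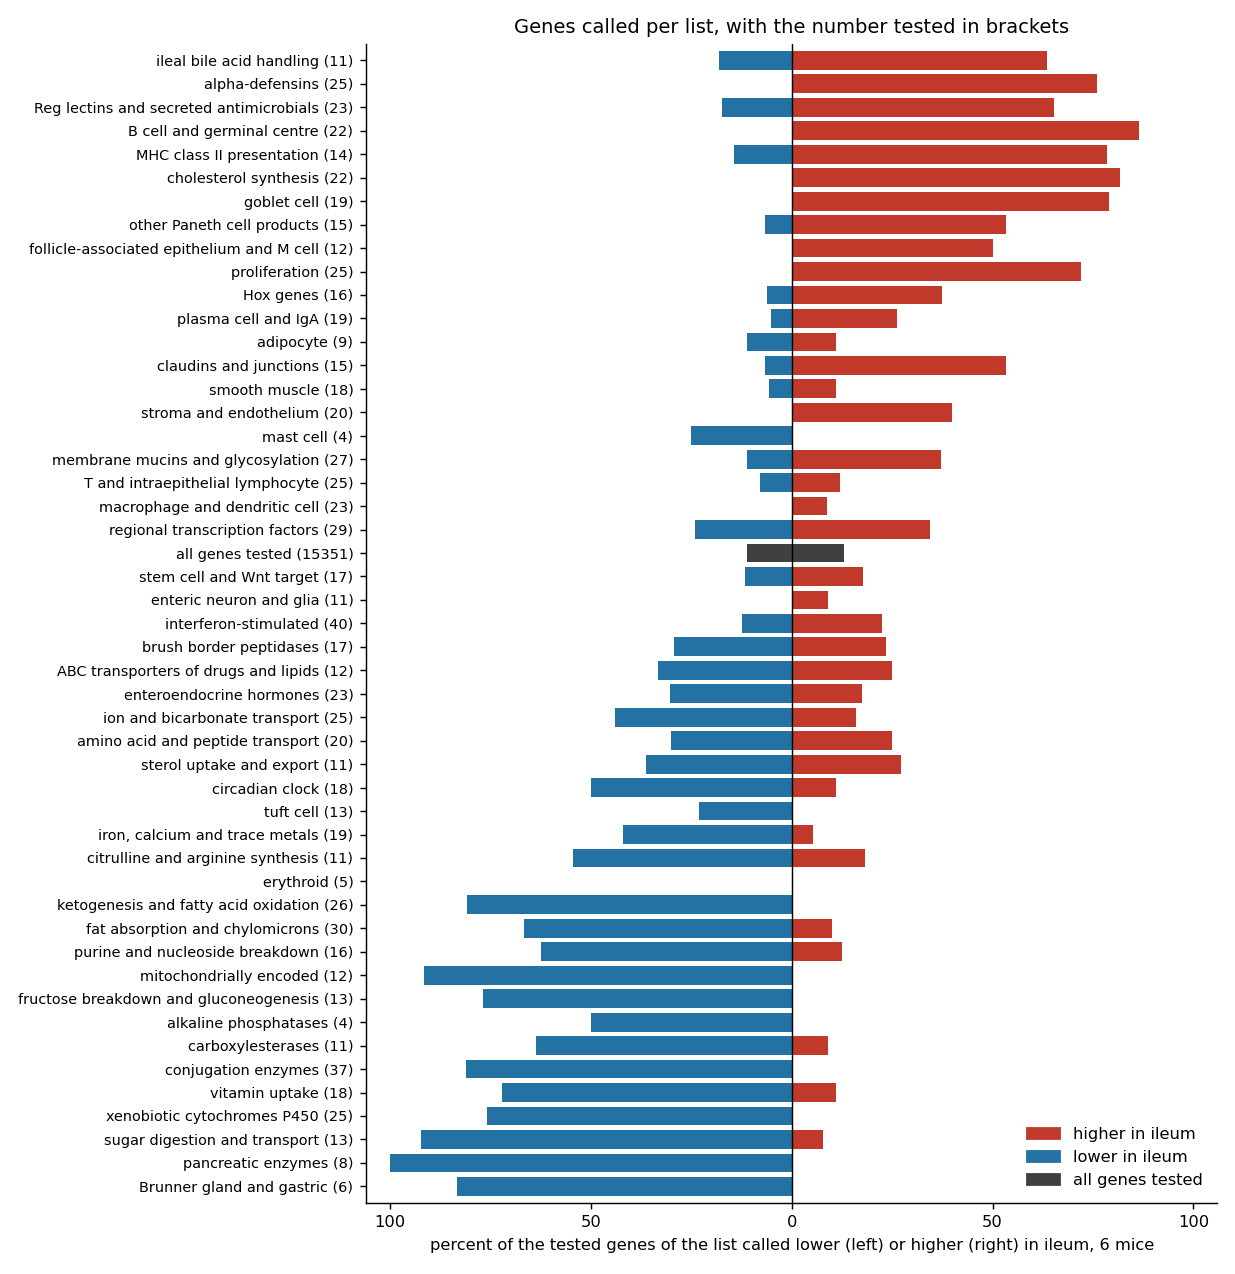
Share of the tested genes of each list called higher (right, red) or lower (left, blue) in ileum in 6 mice without mouse 2, with lists ordered by median change and all genes in grey (13.1% higher, 11.2% lower). Cholesterol synthesis, B cell, goblet cell and alpha-defensin genes lie on the right, and sugar, vitamin, P450, conjugation and pancreatic genes on the left.

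Cholesterol synthesis ran against the other lipid genes and was higher in ileum. Of 22 genes, 18 were higher and 0 lower without mouse 2, with a median change of 0.71 against 0.06 over all genes, and 18 were higher with RLE scaling too. Sqle, squalene epoxidase, had 49.9, 73 and 101 TPM in ileum, against 15.1, 20.9 and 29.4 TPM in duodenum/jejunum (log2 change 1.73 ± 0.10 SE, adjusted p 5.5e-06). Fdft1, squalene synthase, had 21, 30.3 and 40.9 TPM in ileum, against 10.5, 13.5 and 15.7 TPM in duodenum/jejunum (log2 change 1.15 ± 0.08 SE, adjusted p 2.4e-05), Fdps, which makes farnesyl diphosphate, 86.6, 113 and 137 TPM in ileum, against 40.3, 50.3 and 67.7 TPM in duodenum/jejunum (log2 change 1.10 ± 0.08 SE, adjusted p 2.8e-05), and Mvd, a decarboxylase of the mevalonate pathway, 13.7, 19.2 and 22.1 TPM in ileum, against 7.42, 8.89 and 9.75 TPM in duodenum/jejunum (log2 change 1.01 ± 0.09 SE, adjusted p 5.4e-05). None of these 4 overlapped between the tissues. Abcg5, one part of the pump that returns sterols to the lumen, was lower in ileum with 99.8, 127 and 132 TPM in ileum, against 141, 169 and 208 TPM in duodenum/jejunum (log2 change -0.51 ± 0.07 SE, adjusted p 0.001). Of 11 genes of sterol uptake and export, 3 were higher and 4 lower, against 13.1% and 11.2% of all genes. With 7 mice none of the 5 named sterol genes was called (adjusted p 0.13 to 0.41).

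The Mvd promoter window stands for the cholesterol synthesis genes, which moved together. Its capitals mark CCAAT on either strand, and the other motifs searched had 0 matches in it. Of the 17 list members found in RefSeq, 16 held CCAAT in any of their windows, against 37.4% of all windows. The first count is per gene and the second share per window, so they are not in the same unit. CCAAT was also held by 7 of 12 sugar, 10 of 25 fat absorption and 2 of 10 bile acid genes. The motif was chosen after the gene values were seen.
Mvd (chr8:122443373-122443672, minus strand): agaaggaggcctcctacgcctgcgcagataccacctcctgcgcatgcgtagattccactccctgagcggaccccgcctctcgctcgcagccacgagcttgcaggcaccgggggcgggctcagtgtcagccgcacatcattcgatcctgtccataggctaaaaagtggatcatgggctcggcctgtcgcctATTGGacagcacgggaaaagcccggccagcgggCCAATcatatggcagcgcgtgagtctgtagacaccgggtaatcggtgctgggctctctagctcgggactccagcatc

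Innate defence genes of the epithelium were mostly higher in ileum. Saa1, a serum amyloid A that binds retinol, had 66.1, 202 and 366 TPM in ileum, against 0.477, 1.56 and 3.4 TPM in duodenum/jejunum (log2 change 6.15 ± 0.22 SE, adjusted p 7.1e-07), and Reg3g, a lectin that kills Gram-positive bacteria, 3053, 11796 and 16654 TPM in ileum, against 787, 2024 and 3798 TPM in duodenum/jejunum (log2 change 2.33 ± 0.14 SE, adjusted p 7e-06). The 4 Reg3 genes summed to 9179, 31711 and 44451 TPM in ileum, against 2319, 7246 and 12593 TPM in duodenum/jejunum, higher in 6 of 6 mice, with mouse 3 lowest in both tissues. Duox2, which releases hydrogen peroxide into the lumen, had 67.2, 155 and 215 TPM in ileum, against 8.64, 15.9 and 23 TPM in duodenum/jejunum (log2 change 3.13 ± 0.18 SE, adjusted p 7e-06), and its maturation factor Duoxa2 18.7, 71.1 and 123 TPM in ileum, against 2.29, 4.39 and 8.59 TPM in duodenum/jejunum (log2 change 3.51 ± 0.26 SE, adjusted p 2.4e-05). In all 4 genes mouse 3 had the lowest ileum level of the 6 mice, and Reg3g alone overlapped between the tissues. Of 23 Reg lectins and secreted antimicrobials, 15 were higher and 4 lower in ileum without mouse 2, and 1 was higher and 2 lower with 7 mice.

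Other large increases in ileum belong to no list. Suox, sulfite oxidase, had 99.8, 145 and 203 TPM in ileum, against 7.05, 8.58 and 11.6 TPM in duodenum/jejunum (log2 change 3.92 ± 0.14 SE, adjusted p 7.1e-07). Tmigd1, an adhesion molecule of the brush border, had 251, 387 and 637 TPM in ileum, against 17.6, 31.9 and 61 TPM in duodenum/jejunum (log2 change 3.63 ± 0.19 SE, adjusted p 4e-06), and Mgat4c, a glycosyltransferase, 149, 170 and 212 TPM in ileum, against 10.8, 13.6 and 30.3 TPM in duodenum/jejunum (log2 change 3.45 ± 0.14 SE, adjusted p 9.3e-07). None overlapped between the tissues, and mouse 2 ran the other way in each, with Suox at 5.44 TPM in its library labelled ileum and 86.6 TPM in that labelled duodenum/jejunum.

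**Figure D4:**
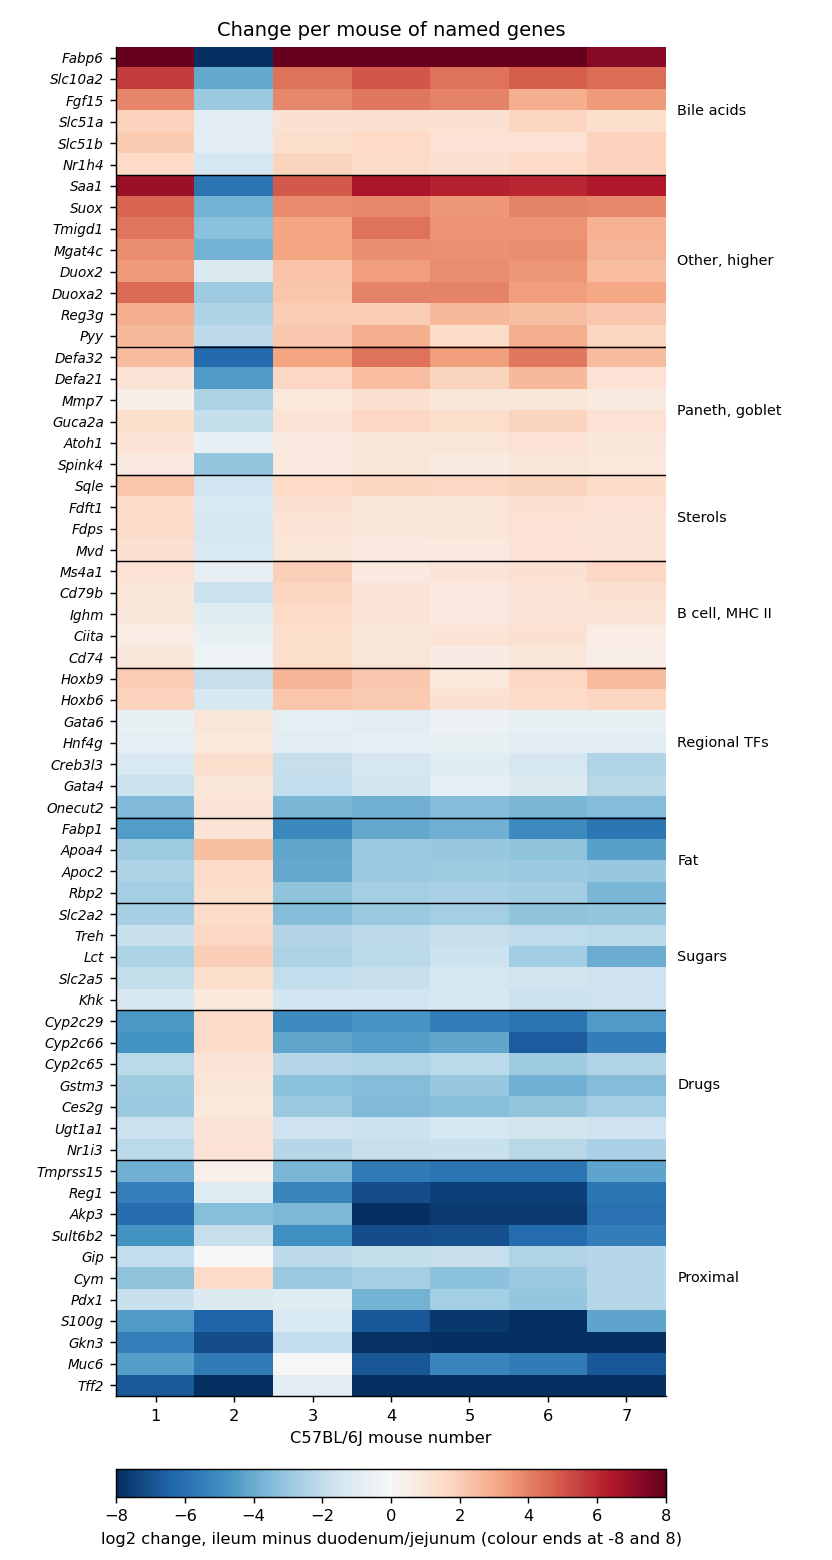
Log2 change of TPM + 1 (ileum minus duodenum/jejunum, colour) of named genes in each C57BL/6J mouse, grouped by role. The 6 other mice share their colours in nearly every row, and mouse 2 has the opposite colour for most groups. In the bottom rows, S100g, Gkn3, Muc6 and Tff2 are blue in mouse 2 but pale in mouse 3.

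Paneth cell products were higher in ileum. Of 25 alpha-defensin genes tested, 19 were higher and 0 lower in 6 mice, with 17 higher under RLE scaling. The 39 alpha-defensin entries summed to 94107 ± 26847 TPM in ileum and 45606 ± 12033 TPM in duodenum/jejunum (SD, n = 6), 9.41% and 4.56% of all transcripts by TPM, and the sum was higher in ileum in 6 of 6 mice. Mouse 1 had the lowest ileum sum of these (43985 TPM). Defa32 had 4543, 9510 and 12990 TPM in ileum, against 420, 862 and 2155 TPM in duodenum/jejunum (log2 change 3.36 ± 0.25 SE, adjusted p 2.8e-05) and Defa33 978, 2207 and 2399 TPM in ileum, against 106, 158 and 482 TPM in duodenum/jejunum (log2 change 3.26 ± 0.26 SE, adjusted p 3.7e-05), while Defa21 overlapped at 3371, 7727 and 9483 TPM in ileum, against 1275, 1999 and 3473 TPM in duodenum/jejunum (log2 change 1.80 ± 0.21 SE, adjusted p 0.00034). These genes are near-identical copies on chromosome 8, and reads may be split between them. Mmp7, the matrilysin that activates alpha-defensins in mice, had 143, 259 and 308 TPM in ileum, against 102, 126 and 186 TPM in duodenum/jejunum (log2 change 0.87 ± 0.10 SE, adjusted p 0.00026). In mouse 2 the library labelled ileum had the lowest alpha-defensin sum of the 14 libraries, 4131 TPM, against 46090 TPM in that labelled duodenum/jejunum. Of 15 other Paneth cell products, 8 were higher and 1, Guca2b, lower.

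Most goblet cell genes were higher in ileum. Of 19 genes, 15 were higher and 0 lower in 6 mice. Atoh1, the factor that specifies secretory cells, had 17.8, 18.5 and 23.4 TPM in ileum, against 7.87, 8.75 and 12.1 TPM in duodenum/jejunum (log2 change 0.98 ± 0.08 SE, adjusted p 4e-05), and Spink4, a protease inhibitor of goblet cells, 1510, 1915 and 2145 TPM in ileum, against 894, 1050 and 1212 TPM in duodenum/jejunum (log2 change 0.84 ± 0.07 SE, adjusted p 3.8e-05). The guanylate cyclase ligands went in opposite directions. Guca2a, which encodes guanylin, had 791, 861 and 971 TPM in ileum, against 243, 333 and 454 TPM in duodenum/jejunum (log2 change 1.42 ± 0.09 SE, adjusted p 1.3e-05), and Guca2b, which encodes uroguanylin, 391, 570 and 626 TPM in ileum, against 1254, 1484 and 1823 TPM in duodenum/jejunum (log2 change -1.48 ± 0.09 SE, adjusted p 6.8e-06). Neither gene overlapped between the tissues.

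Hormone genes of the enteroendocrine cells were divided by position. Gip, the incretin of proximal K cells, had 20.9, 30.1 and 34.3 TPM in ileum, against 113, 123 and 127 TPM in duodenum/jejunum (log2 change -2.09 ± 0.08 SE, adjusted p 9.6e-07; with 7 mice adjusted p 0.045), and Cck, the hormone that empties the gall bladder, 10.3, 13.2 and 15 TPM in ileum, against 40.6, 49.7 and 75.6 TPM in duodenum/jejunum (log2 change -1.96 ± 0.12 SE, adjusted p 8.8e-06). Pyy, a hormone of distal L cells, had 23.2, 33.1 and 43.7 TPM in ileum, against 3.35, 6.36 and 9.93 TPM in duodenum/jejunum (log2 change 2.28 ± 0.20 SE, adjusted p 6.5e-05). Gcg, the proglucagon gene of the same cells, chosen after its values were seen, had 34.9, 41.6 and 54.9 TPM in ileum, against 23.6, 27.4 and 33.1 TPM in duodenum/jejunum (log2 change 0.59 ± 0.09 SE, adjusted p 0.0015). Gip, Cck and Pyy did not overlap in 6 mice. In mouse 2, Gip was nearly equal in its libraries labelled ileum and duodenum/jejunum (94.3 and 90.5 TPM). Of 23 hormone and enteroendocrine genes, 4 were higher (Gcg, Pyy, Nts and Tac1) and 7 lower in ileum in 6 mice, and 2 lower with 7 mice (Gip and Ghrl). Of 13 tuft cell genes, 3 were lower and 0 higher, or 6 lower with RLE scaling and 2 lower and 1 higher with alpha-defensin and mitochondrially encoded genes taken out of the total.

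B cell genes and antigen presentation genes were mostly higher in ileum. Of 22 B cell and germinal centre genes, 19 were higher and 0 lower, and their sum was 159, 195 and 328 TPM in ileum, against 94.3, 106 and 116 TPM in duodenum/jejunum, without overlap. Ms4a1, the B cell antigen CD20, had 6.95, 8.69 and 17.4 TPM in ileum, against 1.96, 3.39 and 4.58 TPM in duodenum/jejunum (log2 change 1.29 ± 0.15 SE, adjusted p 0.00031), and Cd79b, a part of the B cell receptor, 15.7, 17.6 and 27.2 TPM in ileum, against 7.07, 7.91 and 8.68 TPM in duodenum/jejunum (log2 change 1.13 ± 0.12 SE, adjusted p 0.00019). Cxcl13, which draws B cells into follicles, had 9.59, 10.5 and 18.7 TPM in ileum, against 3.45, 4.55 and 5.11 TPM in duodenum/jejunum (log2 change 1.20 ± 0.15 SE, adjusted p 0.0006), and Ighm, the IgM constant gene, 36, 42 and 67.4 TPM in ileum, against 18.2, 21.2 and 24 TPM in duodenum/jejunum (log2 change 1.06 ± 0.10 SE, adjusted p 9.7e-05). Mouse 3 had the highest ileum level of all 4. Of 19 plasma cell genes, 5 were higher, 1 lower and 13 not called, against 13.1% higher and 11.2% lower of all genes. Ccl21a, a chemokine of lymphoid stroma, changed by 0.55 ± 0.08 SE (adjusted p 0.0012), a call lost without the pairing (adjusted p 0.074), and 6 of 12 genes of follicle epithelium were higher and 0 lower. Of 14 MHC class II genes, 11 were higher and 2, Ctse and Ifi30, lower. Ciita, their master activator, had 18.4, 19.6 and 21.6 TPM in ileum, against 7.66, 9.21 and 12.5 TPM in duodenum/jejunum (log2 change 0.96 ± 0.12 SE, adjusted p 0.00045), and Cd74, the invariant chain, 1561, 1776 and 1931 TPM in ileum, against 628, 979 and 1222 TPM in duodenum/jejunum (log2 change 0.90 ± 0.11 SE, adjusted p 0.00049). The share of follicles in each piece was not measured, and its part in these values was not tested.

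The lists of T cells, macrophages, smooth muscle and stem cells were called about as often as all genes (13.1% higher and 11.2% lower) or less, and give no result of their own. Of 25 T and intraepithelial lymphocyte genes, 3 were higher and 2 lower in ileum (6 higher with alpha-defensin and mitochondrially encoded genes taken out of the total), of 23 macrophage and dendritic cell genes 2 were higher and 0 lower, and of 18 smooth muscle genes 2 were higher and 1 lower. Of the stromal and endothelial list, 8 of 20 genes were higher and 0 lower, or 7 and 1 with RLE scaling and 4 higher without the pairing. Proliferation genes were higher in 18 of 25 and lower in 0, by little: Top2a, a topoisomerase of dividing cells, had 107, 113 and 131 TPM in ileum, against 77, 86.3 and 110 TPM in duodenum/jejunum (log2 change 0.38 ± 0.06 SE, adjusted p 0.0028). Of 17 stem cell and Wnt target genes, 3 were higher and 2 lower, or 5 and 1 with that other total.

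Junction and clock genes changed in part. Of 15 claudin and junction genes, 8 were higher (5 without the pairing) and 1 lower. Cldn15, a claudin that forms sodium pores, was the lower one with 212, 240 and 270 TPM in ileum, against 342, 372 and 393 TPM in duodenum/jejunum (log2 change -0.61 ± 0.06 SE, adjusted p 0.00017). Cldn2, which also forms pores, had 48.8, 69.3 and 78.7 TPM in ileum, against 26.5, 32 and 42.7 TPM in duodenum/jejunum (log2 change 0.98 ± 0.13 SE, adjusted p 0.00087), and Cldn8, a sealing claudin, 1.51, 2.25 and 4.48 TPM in ileum, against 0.379, 0.545 and 0.799 TPM in duodenum/jejunum (log2 change 1.14 ± 0.15 SE, adjusted p 0.00078). Of 18 clock genes, 9 were lower (5 without the pairing) and 2 higher in ileum. Dbp, an output factor of the clock, had 1.9, 5.92 and 12.4 TPM in ileum, against 5.96, 15.5 and 42.3 TPM in duodenum/jejunum (log2 change -1.48 ± 0.12 SE, adjusted p 4.3e-05), and Arntl, which drives it, 20, 29.1 and 32.7 TPM in ileum, against 13.6, 16.9 and 22.2 TPM in duodenum/jejunum (log2 change 0.65 ± 0.07 SE, adjusted p 0.00026). Levels of both overlapped between the tissues, and the difference lay within each of the 6 mice. Without the pairing, the call of Dbp was lost (adjusted p 0.051). The labels give no time of collection.

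**Figure D5:**
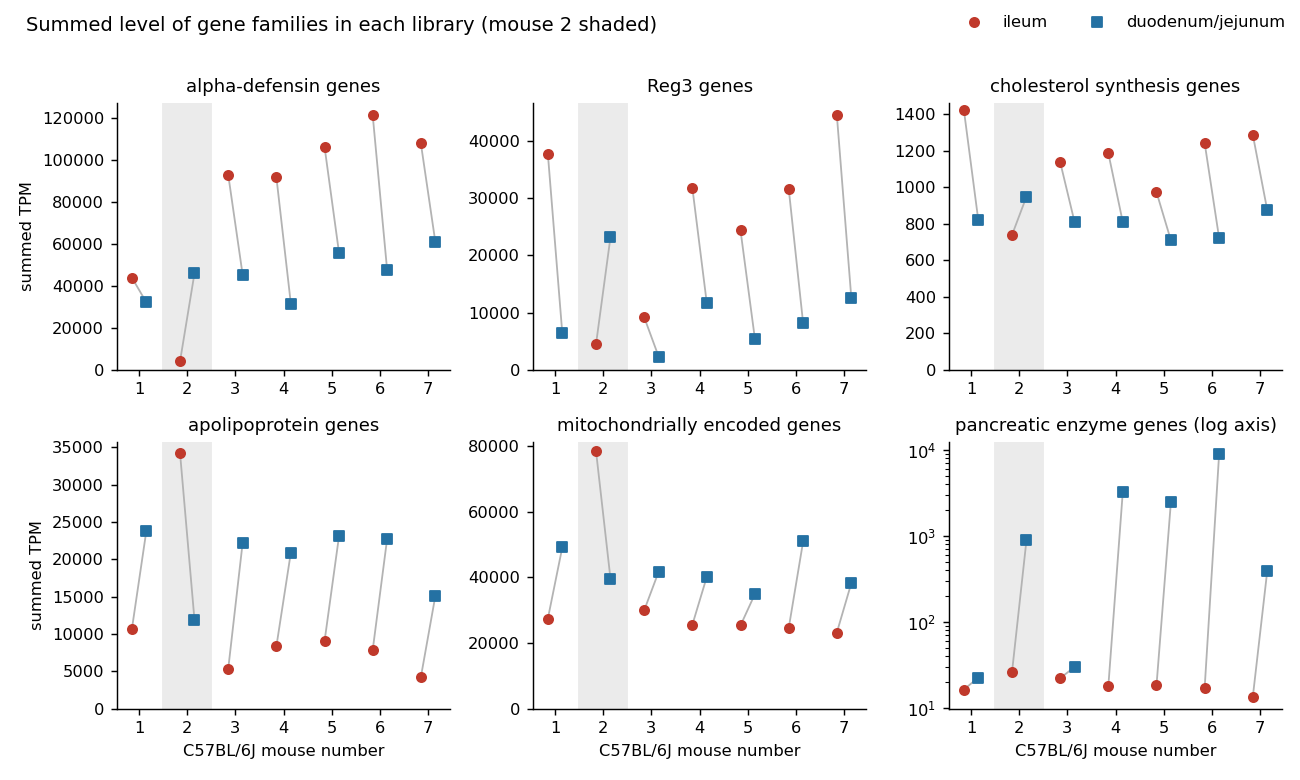
Summed TPM of 6 gene families in the ileum (circles, left of each pair) and duodenum/jejunum (squares) of each C57BL/6J mouse; the pancreatic panel has a log axis and the others start at 0. Alpha-defensin, Reg3 and cholesterol synthesis sums are higher and apolipoprotein, mitochondrial and pancreatic sums lower in ileum in the 6 unshaded mice, and mouse 2 (shaded) is reversed in every panel but the pancreatic one.

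The same comparison in 6 BALB/cJ mice, which share no library with it, gave more calls. There limma called 7021 genes (45.7%), 5684 higher and 1337 lower in ileum, with a median change of all genes of 0.21, so that the balance of directions differs. Of the genes called in 6 C57BL/6J mice, 1714 of 2007 higher ones (85.4%) and 1001 of 1726 lower ones (58.0%) were called the same way in BALB/cJ, against 37% and 8.71% of all genes. These shared calls were 30.2% of the BALB/cJ genes called higher and 74.9% of those called lower. Only 3 and 15 were called the other way. The change of Fabp6 was 9.21 ± 0.33 SE in C57BL/6J and 9.25 ± 0.47 SE in BALB/cJ, that of Slc10a2 4.76 ± 0.16 and 4.67 ± 0.12 SE, and that of Tmprss15 -4.85 ± 0.33 and -5.32 ± 0.23 SE.

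A small share of genes differed between the strains in their change along the small intestine. The difference of the change (C57BL/6J minus BALB/cJ) was called for 165 genes with all mice (1.07%) and for 617 without mouse 2 (4.02%), 58 of these more positive and 559 more negative in C57BL/6J. The median difference of all genes was -0.17, and 0.01 with RLE scaling, under which 178 genes were called without mouse 2 (1.16%), 97 more positive and 81 more negative, and 17 with all mice (0.111%). Differences below are therefore read against this shift. The 5 genes with the smallest adjusted p were Mptx1, a mucosal pentraxin, Dpep1, a brush border dipeptidase, Slc26a2, a sulfate carrier, Gbp2b, a guanylate-binding protein, and Peli3, a ubiquitin ligase. Their differences were -1.69, -1.14, -0.89, -1.45 and -1.17 with all mice (adjusted p 0.01 to 0.018), and with RLE scaling 4 of the 5 were still called and Gbp2b was not (adjusted p 0.053). Mptx1 had 1.6, 2.52 and 4.46 TPM in ileum, against 1.42, 2.5 and 5.93 TPM in duodenum/jejunum of 6 C57BL/6J mice, and 158, 221 and 234 TPM in ileum, against 46, 72.8 and 119 TPM in duodenum/jejunum, of BALB/cJ mice. Peli3 did not pass 2.24 TPM in any BALB/cJ library. The pseudocount of 1 understates a change at such low levels. For Mptx1 and Peli3 the difference of the change therefore cannot be told apart from these low levels. In C57BL/6J the change of Dpep1 was 0.52 ± 0.07 SE and in BALB/cJ 1.63 ± 0.12 SE.

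Some genes with a large change in C57BL/6J had far lower levels in BALB/cJ in 1 or both tissues. Defa32 had 4543, 9510 and 12990 TPM in ileum, against 420, 862 and 2155 TPM in duodenum/jejunum of 6 C57BL/6J mice, and 0, 7.09 and 22.2 TPM in ileum, against 2.42, 4.07 and 4.52 TPM in duodenum/jejunum, of BALB/cJ mice. Defa33 was listed at 0 in each BALB/cJ ileum library and did not pass 0.00151 TPM in duodenum/jejunum. At these levels the change of Defa33 along the gut was not compared between the strains. The change of Defa32 was 3.36 ± 0.25 SE in C57BL/6J and 0.50 ± 0.46 SE in BALB/cJ (adjusted p 0.4), and their difference of 2.86 without mouse 2 (adjusted p 0.025; 0.53 with all mice) cannot be told apart from this difference of level. Cyp2c29 had 0.0958, 0.487 and 1.43 TPM in ileum, against 27.8, 52.2 and 90.8 TPM in duodenum/jejunum of C57BL/6J mice, and 0.144, 0.198 and 1.86 TPM in ileum, against 0.942, 3.5 and 13.6 TPM in duodenum/jejunum, of BALB/cJ mice. Its log2 changes of -5.04 ± 0.18 SE in C57BL/6J and -1.71 ± 0.21 SE in BALB/cJ differed by -3.33 without mouse 2 (adjusted p 8.5e-05; 0.13 with all mice), but the pseudocount of 1 understates a fall that starts from the low BALB/cJ level. Slc34a2 rose less in C57BL/6J (1.67 ± 0.11 SE) than in BALB/cJ (3.16 ± 0.20 SE), and this difference was called with all mice (-1.77, adjusted p 0.045) but not after RLE scaling (adjusted p 0.079). Cholesterol synthesis genes Fdps and Mvd rose less in C57BL/6J, with differences of -0.46 and -0.68 without mouse 2 (adjusted p 0.049 and 0.041), which were not called with RLE scaling, at -0.27 and -0.50 (adjusted p 0.27 and 0.16).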

How the data were processed

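Bulk RNA-seq libraries of ileum and duodenum/jejunum from 7 C57BL/6J mice were compared, with those of 6 BALB/cJ mice as a second set. Per the labels' protocols, a PureLink kit gave the RNA, which was sequenced from TruSeq total RNA libraries after RiboZero depletion. The submitters' processing notes name kallisto 0.44.0 and GRCm38. The deposited values are log2 of TPM plus 1, as the authors made them, per gene, and they were turned back into TPM for the levels. The 14 libraries summed to 990358 to 996230 TPM and had 14557 to 15814 entries at 1 TPM or more. No read counts were used, so the depth is unknown, as are intervals from counting. From 34600 entries, 26 with names turned into dates (at most 0.225% of TPM) were dropped, and genes that reached 1 TPM in 6 or more of the 14 libraries entered the test.

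The change was fitted on log2(TPM + 1), a pseudocount of 1 that understates changes of low genes, with limma 3.58.1 (trend) in R 4.3.3, the mouse as a block, and Benjamini-Hochberg adjustment over all 15351 genes. The strain difference of the change was fitted as an interaction of strain and tissue. Libraries of a mouse number come from the same animal per the labels. Their deviations from the tissue means correlated at 0.161 to 0.42 in 6 mice and at -0.182 in mouse 2, and at 0.292 to 0.388 with mouse 2 left out. No library pair was identical (0 pairs), and 0 columns belonged to no sample. The p-values set the mean change within mice against how that change varied between these mice, with 1 library per tissue and mouse.

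Members and gene lists were chosen with earlier results of these data known. Genes were named by rule: 8 called genes a direction, by size of change, with 7 and with 6 mice, at a mean of 5 TPM or more in the higher tissue; up to 4 called members of each list by smallest adjusted p; a set of region markers; and 5 genes by smallest adjusted p of the strain difference. Not every gene that the rule allows is described, and some items are not reported here. Nr0b2, Cdx1, Cdx2, Gcg and Pdx1 were chosen after their values were seen. On simulated data with 200 changed genes among 15351, 6 pairs recovered 50.7%, 89.6% and 98.5% of changes of 0.5, 1 and 2 on the log2 scale (4.22% of calls false), and 7 pairs 38.8%, 74.6% and 95.5% (5.44% false). The simulated noise was independent, and no simulated mouse ran against the others in the changed genes, as mouse 2 did. The rates for 7 pairs therefore do not describe the real comparison with 7 mice. Alternatives were no pairing, median-of-ratios (RLE) scaling, a pseudocount of 0.1, filters of 5 TPM and none, robust variance moderation, leaving out each mouse and, chosen after seeing the data, the same settings without mouse 2, a total without alpha-defensin and mitochondrially encoded genes, and the BALB/cJ comparison. Gene positions come from GENCODE M21 (14820 of 15351 tested genes matched once) and promoter windows from RefSeq for GRCm38.p6.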

Additional observations from a re-analysis of the deposited data

Results flagged for a closer look

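In mouse 2, the change of 93 of the 122 genes named and fitted lay far from those of the other mice, as did those of Tff2 and Muc6 in mouse 3. A change counted as far where its gap to the nearest mouse, divided by the range of all 7, passed Dixon's 95% critical value for 7 values. Chance alone would flag about 1 in 20 groups of values that had not been selected. That rate does not hold here, since many of these genes were named from the fit without mouse 2. The values are log2 changes, ileum minus duodenum/jejunum, in mouse 2.

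Bile acid genes changed by -8.05 (Fabp6), -4.10 (Slc10a2), -0.82 (Slc51a), -0.90 (Slc51b), -2.96 (Fgf15), -1.43 (Nr1h4) and 1.54 (Abcc2). Large increases of the other mice had changes of -5.82 (Saa1), -3.77 (Suox), -3.34 (Tmigd1), -3.76 (Mgat4c), -2.47 (Reg3g), -1.13 (Duox2) and -2.92 (Duoxa2). Genes of the first part of the small intestine stood at 1.50 (Cym), -1.05 (Reg1), -0.67 (Otop3) and 0.38 (Tmprss15). Transcription factors changed by 1.02 (Onecut2), 0.94 (Gata6), 0.82 (Hnf4g), 1.43 (Creb3l3), -1.31 (Hoxb6), -1.85 (Hoxb9), -0.57 (Hoxc8), -1.42 (Hoxc6) and -0.59 (Cdx1). Fat absorption genes had changes of 1.12 (Fabp1), 2.38 (Apoa4), 1.51 (Apoc2) and -2.44 (Scd2). Sugar genes stood at 1.44 (Slc2a2), 1.68 (Treh), 1.43 (Slc2a5), 1.99 (Lct) and 0.84 (Khk). Most of these have the sign opposite to the other mice.

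Vitamin and mineral genes changed by 1.26 (Adh1), 1.08 (Slc46a1), 1.38 (Rbp2), -0.27 (Slc34a2) and 0.23 (Slc11a2). Genes of protein digestion and amino acids had changes of -1.82 (Mep1a), 1.33 (Mme), 1.27 (Slc7a8), 1.14 (Slc6a20a) and 0.17 (Otc). P450 genes and their receptor stood at 1.47 (Cyp2c29), 1.09 (Cyp2c65), 1.56 (Cyp2c66) and 1.16 (Nr1i3). Esterases and conjugation enzymes changed by 0.84 (Ces2g), 0.91 (Ces2e), 1.02 (Ugt1a1) and 0.95 (Gstm3). Genes of fuel oxidation and thymidine breakdown had changes of 1.91 (Acaa1b), 1.57 (Pdk4) and 1.72 (Tymp). Sterol genes stood at -1.62 (Sqle), -1.20 (Fdft1), -1.36 (Fdps), -1.19 (Mvd) and 0.98 (Abcg5).

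Paneth and goblet cell genes changed by -6.25 (Defa32), -5.61 (Defa33), -4.52 (Defa21), -2.52 (Mmp7), -1.89 (Guca2a), 1.22 (Guca2b), -3.13 (Spink4) and -0.63 (Atoh1). Hormone genes had changes of 0.06 (Gip), 0.27 (Cck), -2.10 (Pyy) and -1.91 (Gcg). Lymphoid and antigen presentation genes stood at -0.65 (Ms4a1), -1.74 (Cd79b), -1.49 (Cxcl13), -0.99 (Ighm), -1.81 (Ccl21a) and -0.57 (Ciita). Innate sensor and proliferation genes changed by 0.08 (Naip1) and -0.50 (Top2a). Junction and clock genes had changes of 0.52 (Cldn15), -0.89 (Cldn8), -1.64 (Cldn2), 1.50 (Dbp) and -0.06 (Arntl). Glycosylation, water channel and interferon genes stood at -1.80 (Fut2), -1.44 (Gcnt1), 1.59 (Aqp7), 0.54 (Aqp11), -1.06 (Gbp2) and 1.12 (Ifi27l2b). In mouse 3, Tff2 changed by -0.92 and Muc6 by -0.05, the smallest falls of the 7 mice.

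The change along the small intestine differed between the strains (limma on the difference within each mouse, adjusted over all genes) for 20 of the named genes. With all mice, the differences, C57BL/6J minus BALB/cJ, were -0.78 (Smox), -1.77 (Slc34a2), -1.69 (Mptx1), -1.14 (Dpep1), -0.89 (Slc26a2), -1.45 (Gbp2b), -1.17 (Peli3) and -2.00 (Nr0b2). Without mouse 2, they were also called for other genes, being negative at -0.83 (Gip), -0.75 (Scd2), -1.01 (Ccl21a), -0.70 (Cd74), -3.33 (Cyp2c29) and -1.12 (Gstm3), and at -1.67 (Acaa1b), -0.46 (Fdps), -0.68 (Mvd) and -1.05 (Gcg). They were positive at 2.86 (Defa32) and 1.54 (Gcnt1). Defa32 had far lower levels in BALB/cJ, as given above, and so are the low levels of Mptx1 in C57BL/6J and of Peli3 in BALB/cJ. These differences were computed on TPM, where the median of all genes was -0.17. With RLE scaling 10 of them were called and 10 were not. The 10 were, with all mice, Smox (adjusted p 0.082), Slc34a2 (0.079), Gbp2b (0.053) and Nr0b2 (0.064), and without mouse 2, Gip (0.18), Scd2 (0.11), Ccl21a (0.077), Cd74 (0.16), Fdps (0.27) and Mvd (0.16).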

How the results depend on the processing

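The count of 56 genes called with 7 mice depended on nearly every choice. It was 676 without the mouse block, 23 with RLE scaling, 49 with a pseudocount of 0.1, 116 with a filter of 5 TPM, 68 with robust variance moderation and 0 with no filter, where 3930 genes reached an unadjusted p under 0.05 in limma. Leaving out each mouse in turn gave 0 to 3733 calls, the highest without mouse 2, and where limma called 0 genes 2174 to 2765 reached an unadjusted p under 0.05. The 3733 calls without mouse 2 moved less, to 2664 to 3419 when a further mouse was left out and to 2923 without the block, 3844 with RLE scaling, 3684 with a pseudocount of 0.1, 3400 with a filter of 5 TPM, 3080 with no filter, 3727 with robust moderation and 3942 with alpha-defensin and mitochondrially encoded genes out of the total. The strain difference, called for 165 genes, was called for 617 without mouse 2, 17 with RLE scaling and 178 with both. The 120 genes without overlap became 1701 without mouse 2. The causes of these shifts were not tested.

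Of 122 genes named with values and fitted, 118 were called without mouse 2 and 19 with all mice. Under the alternatives tried without mouse 2, none of them reversed (0 genes), 112 kept their call in each, and 6 lost it in at least 1: Cela1, Slc26a2, Ccl21a, Dbp, Slc11a2 and Cdx2. Many of these genes were named for their change or p-value in the fit without mouse 2, so part of this stability comes from the choice. Of 39 list counts of 5 or more without mouse 2, 9 moved by over 1.5 times in at least 1 alternative. These were the pancreatic, clock, junction, stromal and interferon counts given above, the Hox count, which was 0 with a filter of 5 TPM, and the alpha-defensin and mitochondrial counts where those genes had been removed. The unknown depth limits what can be said of genes near 1 TPM.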

Other observations

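Some gene lists not described above also held calls in 6 mice without mouse 2. Of 25 genes of ion, water and bicarbonate transport, 11 were lower and 4 higher in ileum, and 1, Car2, was lower with 7 mice. Aqp7, a channel for water and glycerol, had 3.93, 9.92 and 14.2 TPM in ileum, against 15.2, 25.3 and 30.8 TPM in duodenum/jejunum (log2 change -1.27 ± 0.11 SE, adjusted p 6.9e-05), and Aqp11, an aquaporin of inner membranes, 25.1, 31.8 and 39 TPM in ileum, against 43.7, 59.1 and 68.7 TPM in duodenum/jejunum (log2 change -0.84 ± 0.07 SE, adjusted p 5.5e-05). Of 4 alkaline phosphatases, 2 were lower: Akp3, given above and the only one called with 7 mice, and Alpi, with 141, 209 and 300 TPM in ileum, against 445, 555 and 903 TPM in duodenum/jejunum (log2 change -1.43 ± 0.16 SE, adjusted p 0.00026). Of 12 ABC transporters, 4 were lower and 3 higher, against 11.2% and 13.1% of all genes. Abcg2, an efflux pump of the apical membrane, was a higher one with 246, 344 and 436 TPM in ileum, against 153, 205 and 228 TPM in duodenum/jejunum (log2 change 0.77 ± 0.10 SE, adjusted p 0.00066).

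Of 27 genes of membrane mucins and glycosylation, 10 were higher and 3 lower in ileum. Fut2, which adds the fucose that gut bacteria feed on, had 4.34, 9.52 and 16.5 TPM in ileum, against 1.51, 1.99 and 4.68 TPM in duodenum/jejunum (log2 change 1.59 ± 0.17 SE, adjusted p 0.0002), with overlap between the tissues, and Gcnt1, which branches O-linked sugars, 7.06, 11.5 and 15.2 TPM in ileum, against 2.5, 2.62 and 2.89 TPM in duodenum/jejunum (log2 change 1.70 ± 0.12 SE, adjusted p 2.2e-05). Of 40 interferon-stimulated genes, 9 were higher and 5 lower, or 5 and 2 without the pairing. Gbp2, a guanylate-binding protein, had 23.6, 29.3 and 35.3 TPM in ileum, against 12, 17 and 23.2 TPM in duodenum/jejunum (log2 change 0.80 ± 0.09 SE, adjusted p 0.00026). Ifi27l2b went the other way with 117, 207 and 279 TPM in ileum, against 348, 488 and 581 TPM in duodenum/jejunum (log2 change -1.25 ± 0.08 SE, adjusted p 1.2e-05). Of all genes, 13.1% were called higher and 11.2% lower. Against that, the lists of few calls give no result of their own: of 11 neuron and glia genes 1 was higher, of 9 adipocyte genes 1 was higher and 1 lower, of 4 mast cell genes 1 was lower, and of 5 erythroid genes limma called 0 in 6 mice, with 1 at an unadjusted p under 0.05.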
